A study of Mus musculus with 8 samples.

Results

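Nuclear oxidative phosphorylation genes were compared between cells labelled as tumour-infiltrating neutrophils and sorted as CD54-positive and as CD54-negative. Members were the genes whose symbols name subunits of complexes I to V (Nduf, Sdh, Uqcr, Cyc1, the ubiquitous Cox forms and Atp5) or the complex III factors Uqcc, with 10 or more counts in 4 or more of the 8 libraries. There were 81 members among 25572 gene identifiers, 37 in complex I, 4 in complex II, 12 in complex III, 11 in complex IV and 17 in complex V. The symbols alone matched 82 identifiers. The one left out, Ndufa5, a complex I subunit, had 8, 39, 1 and 69 counts in CD54-positive replicates 1, 2, 3 and 5 and 28, 2.25, 2.00 and 1 counts in the CD54-negative replicates. Just inside the limit, Atp5k and Ndufb1 had 10 or more counts in 6 libraries, and 70 members had them in all 8. All 81 also passed the filter on low counts used for testing.

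The study sequenced RNA of 4 CD54-positive libraries (ICAM1 high) and 4 CD54-negative libraries (ICAM1 low), numbered 1, 2, 3 and 5 in each group. CD54 is ICAM1, a surface adhesion molecule that binds leukocyte integrins, and the cells of both groups came from PyMT-N tumours carried by C57/B6 mice, with no genotype, treatment, age or time point in the labels used here. The labels do not say what PyMT-N is, whether a shared number marks a shared mouse, or whether each library is a separate mouse, so p-values measure the spread between libraries, which may be technical. Each library was amplified from 150 pg of total RNA.

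Oxidative phosphorylation passes electrons from NADH (complex I) and succinate (complex II) through complex III and cytochrome c to complex IV, which reduces oxygen. Complexes I, III and IV pump protons across the inner mitochondrial membrane, and complex V, the ATP synthase, uses the returning protons to make ATP. Most subunits are encoded in the nucleus. Complexes I, III, IV and V also need subunits encoded in mitochondrial DNA, whereas complex II is wholly nuclear. Mature neutrophils are known for few mitochondria and for a metabolism that relies largely on glycolysis.

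Library totals ran from 15940080 to 21824788 estimated counts, and a count of 3 corresponded to 0.121 to 0.263 CPM (counts scaled to a common library size adjusted by TMM), a floor that covers counting error only. Replicate libraries correlated across genes (Pearson's r of log2 CPM) at 0.77 to 0.85 in CD54-positive and 0.60 to 0.84 in CD54-negative cells. The 12 neutrophil markers summed to 1499 to 4398 CPM in CD54-positive and 6623 to 30995 CPM in CD54-negative libraries, and none was at 0 in any library. The 12 macrophage markers summed to 5499 to 15819 CPM in CD54-positive and 791 to 1113 CPM in CD54-negative libraries, each at 1 CPM or more in every library. The macrophage sum was above the neutrophil sum in each CD54-positive library and below it in each CD54-negative one. In the CD54-positive libraries these markers thus go against the label of neutrophils. CD54-positive replicate 5 had the highest macrophage sum and the lowest neutrophil sum, and CD54-negative replicate 5 the highest neutrophil sum. Icam1 mRNA was 42.4 to 122 CPM in CD54-positive libraries and 4.31 to 18.7 CPM in CD54-negative replicates 1, 2 and 3. In the library labelled CD54-negative replicate 5 it was 138 CPM, the highest of all libraries. The label describes surface protein and this value is mRNA, so it does not show that the cells were sorted wrongly. Because of this value, results are also given without both libraries numbered 5.

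Nuclear genes of the respiratory chain are known to carry promoter sites for NRF1, for GABP (an ETS factor) and for YY1, so the promoters were searched for GCATGCG (NRF1 core), CCGGAAG (ETS core) and ATGGCGG (YY1 core) on both strands. A window ran from 250 bases before to 50 bases after a RefSeq start on the GRCm38.p6 build, and 67 of the 81 members matched 71 windows. The NRF1 core was in 15.5% of the members' windows, against 3.58% of all 32851 windows. The ETS core was in 23.9% and 8.86%, and the YY1 core in 14.1% and 4.05%. A window could hold more than 1 motif, and 43.7% of member windows held any of them, against 14.8% of all windows. Member windows were also richer in G and C (median 58.3% against 52.7%). Among all windows at or above the members' lower quartile of 54.2% G and C, the shares were 5.83% for NRF1, 15% for ETS and 6.99% for YY1. The median log2 fold change, CD54-positive over CD54-negative, was 0.66 in the 30 member genes with any motif and 0.53 in the 37 without, and 0.19 and 0.17 with both libraries numbered 5 left out. A match describes letters only, and no binding was measured. The windows of 3 genes described below, one each from complexes II, III and V, show the 3 motifs in capitals. They are plus-strand sequence of genes that are read from that strand: Sdhb at chr4:140961021-140961320 with the NRF1 and ETS cores, Uqcrc1 at chr9:108936398-108936697 with the NRF1 core (as an overlapping pair, 1 on each strand), and Atp5b at chr10:128083057-128083356 with the YY1 core read on the other strand.
Sdhb: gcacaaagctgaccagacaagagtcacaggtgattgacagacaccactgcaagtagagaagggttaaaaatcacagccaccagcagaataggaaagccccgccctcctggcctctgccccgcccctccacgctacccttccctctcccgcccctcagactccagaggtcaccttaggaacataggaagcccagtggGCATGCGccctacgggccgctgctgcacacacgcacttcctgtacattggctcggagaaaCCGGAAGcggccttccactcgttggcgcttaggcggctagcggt
Uqcrc1: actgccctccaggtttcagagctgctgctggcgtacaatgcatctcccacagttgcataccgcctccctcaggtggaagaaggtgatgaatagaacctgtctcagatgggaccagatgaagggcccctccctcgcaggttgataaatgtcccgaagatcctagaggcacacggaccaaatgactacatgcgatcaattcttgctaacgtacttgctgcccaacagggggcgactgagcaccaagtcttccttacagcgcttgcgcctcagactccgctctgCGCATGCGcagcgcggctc
Atp5b: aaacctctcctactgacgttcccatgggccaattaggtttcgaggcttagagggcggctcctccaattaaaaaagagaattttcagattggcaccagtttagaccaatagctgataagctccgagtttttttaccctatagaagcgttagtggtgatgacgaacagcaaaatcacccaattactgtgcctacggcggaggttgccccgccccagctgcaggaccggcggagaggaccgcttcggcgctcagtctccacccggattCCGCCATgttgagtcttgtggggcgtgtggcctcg

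Transcripts of the respiratory chain were compared between libraries sorted as CD54-positive and as CD54-negative. These groups also differed in macrophage and neutrophil markers, so a difference cannot be credited to surface CD54 alone. No nuclear oxidative phosphorylation gene passed the test: 0 of 81 were higher and 0 were lower in CD54-positive libraries (adjusted p under 0.05 over 13575 genes, from edgeR's quasi-likelihood fit with Benjamini-Hochberg adjustment). Over all genes tested, 1.22% were called higher and 0.273% lower. The lowest adjusted p of a member was 0.226. DESeq2, which gave no adjusted p for Ndufa7 and Cox8a, called 0 of the other 79 members, and limma-voom called 0 of 81, with lowest adjusted p of 0.136 and 0.144. At an unadjusted p under 0.05 there were 5 higher members (Ndufa7, Ndufa9, Ndufa10, Uqcrc2 and Atp5g1) and 0 lower ones (5 of 81), where all genes gave 7.96% higher and 8.96% lower. That count of 5 was 0 without CD54-positive replicate 5, 1 without CD54-negative replicate 2, 2 without CD54-negative replicate 3 and 0 without both libraries numbered 5.

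The members nevertheless leaned one way. A positive log2 fold change, meaning higher in CD54-positive, was fitted for 72 of 81 (88.9%), against 47.7% of all genes tested. The median was 0.61 (interquartile range 0.33 to 0.84), against -0.07 over all genes (-0.88 to 0.72). Single values ran from -0.99 (Ndufa4) to 3.08 (Ndufa7), with a median standard error of 0.67. These are relative levels in bulk RNA, where fewer cells of a type and less RNA per cell cannot be told apart. CD54-positive and CD54-negative libraries did not overlap, with the CD54-positive ones higher, for 4 members (4.94%, against 7.51% of all genes), and for 0 members with the CD54-positive ones lower (3.89% of all genes). A higher value in each of the 4 same-numbered comparisons was found for 11 members, or 13.6% of 81, near the 14.7% of all genes.

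**Figure D1:**
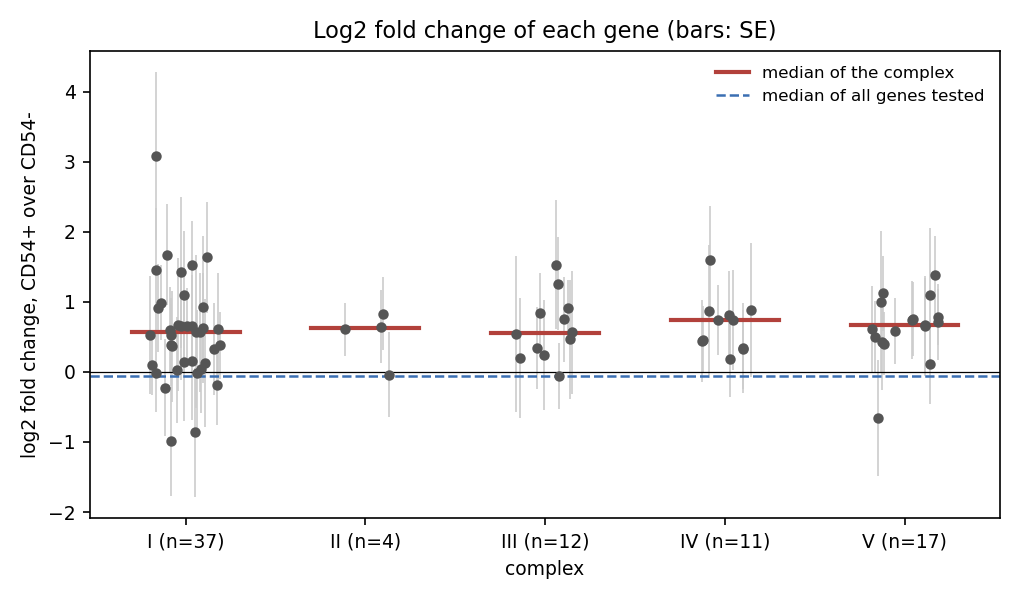
Log2 fold change of the 81 genes (y axis, CD54-positive over CD54-negative) by complex (x axis), with bars of 1 standard error. Red lines mark the median of each complex, from 0.55 in complex III to 0.74 in complex IV, and the dashed line the median of all genes tested, -0.07.

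Summed over the 81 members, the level was 4029, 3944, 3259.5 and 7046 CPM in CD54-positive replicates 1, 2, 3 and 5, against 3608, 2909.8, 3229 and 2441 CPM in the CD54-negative replicates. CD54-positive replicate 5 stood highest and CD54-negative replicate 5 lowest, and the groups overlapped. The means were 4569.5 ± 1687 CPM in CD54-positive and 3047 ± 494 CPM in CD54-negative libraries (SD, n = 4 each), a ratio of 1.5. Without both libraries numbered 5 the ratio was 1.15. The makeup by complex overlapped between the groups. Complex V held 31.3 to 35.3% of the members' CPM in CD54-positive and 28.7 to 36.4% in CD54-negative libraries, and complex I held 23.0 to 29.0% and 20.0 to 32.2%.

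**Figure D2:**
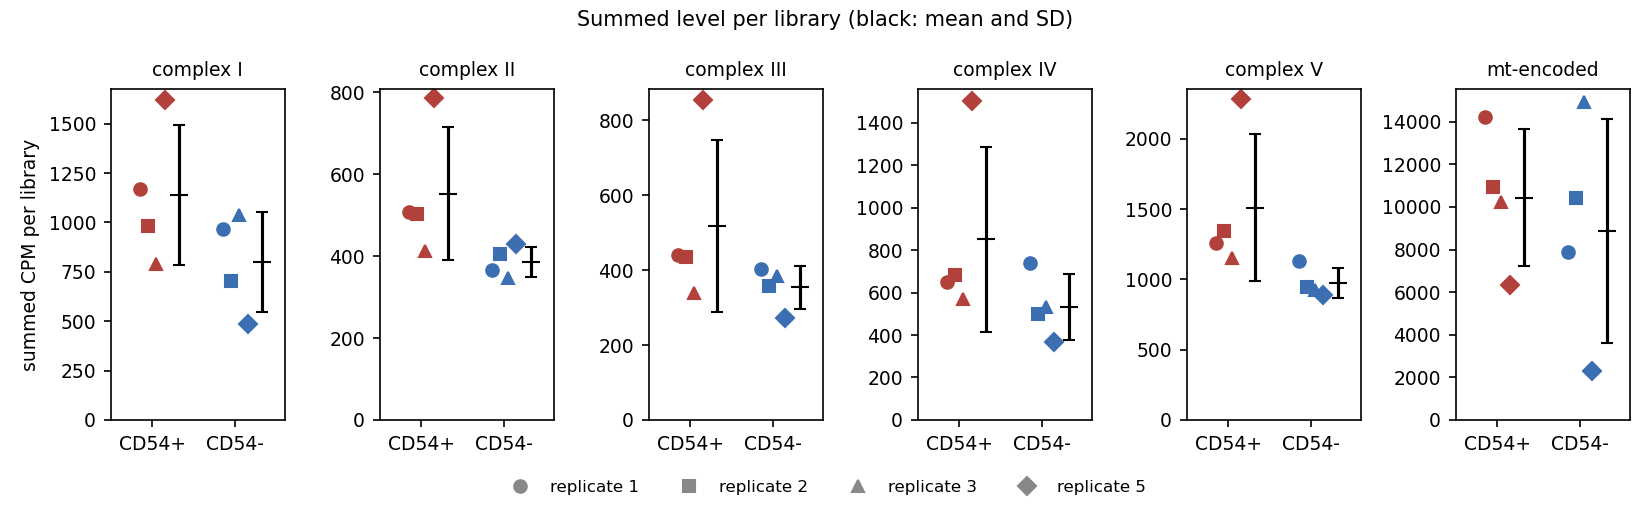
Summed CPM per library (y axis) of the members of each complex and of the mitochondrially encoded subunits, with CD54-positive libraries in red, CD54-negative libraries in blue, and mean and SD in black. CD54-positive replicate 5 is the highest library for each nuclear complex. Complex V is the only panel in which the groups do not overlap, and 1 of its 17 genes, Atp5a1, separates by itself.

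The lean was uneven across replicate numbers. Between the libraries numbered 5, 74 of 81 members (91.4%) were higher in CD54-positive, against 53.8% of all genes, and the median log2 ratio was 1.6 against 0.16. Between those numbered 2 it was 58 of 81 (71.6% against 51.5%), with medians of 0.51 and 0.05. Between those numbered 1 it was 40 of 81 (49.4% against 49.1%), with medians of -0.01 and -0.03, and between those numbered 3 it was 37 of 81 (45.7% against 51.2%), with medians of -0.06 and 0.04. CD54-positive replicate 5 was the highest of all 8 libraries for 45 members, and CD54-negative replicate 5 was the lowest for 37. Fitted without both libraries numbered 5, the median log2 fold change of the members was 0.16, against 0.01 over all genes, and 52 of 81 (64.2% against 50.3%) were positive. Leaving out CD54-positive replicate 5 alone gave a median of 0.31, against -0.10 over all genes, with 56 of 81 positive (69.1% against 46.7%). Leaving out CD54-negative replicate 5 alone gave 0.47, against 0.07 over all genes, with 67 of 81 positive (82.7% against 52.5%). The members' median was thus 0.41 and 0.40 above that of all genes.

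**Figure D3:**
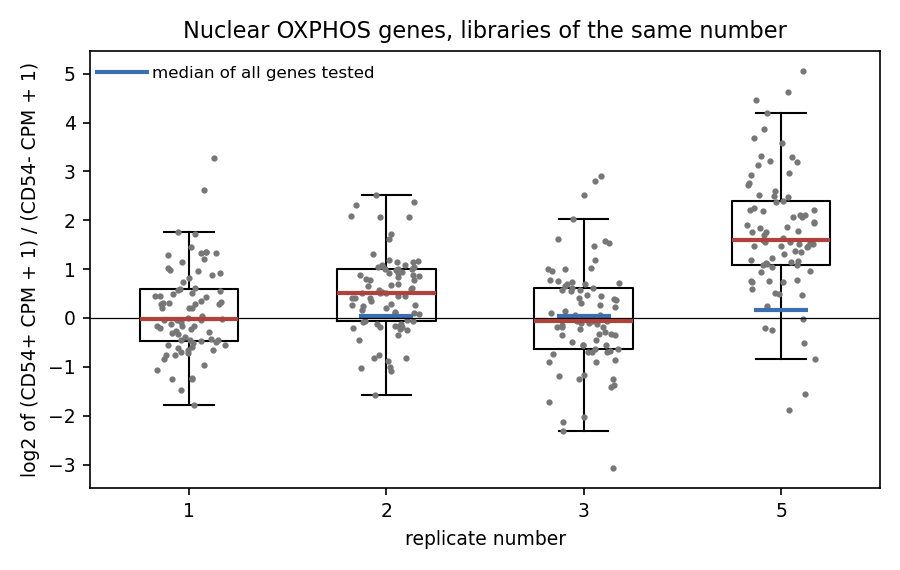
Log2 of the CPM + 1 ratio, CD54-positive over CD54-negative, for each of the 81 genes (points) between libraries of the same number (x axis), with boxes of the quartiles, the members' median in red and the median of all genes tested in blue. At number 5 the box lies above 0 with a median of 1.6, while the medians at numbers 1 and 3 are -0.01 and -0.06.

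In complex I, which takes electrons from NADH, 0 of 37 genes passed the test and 31 were positive, with a median log2 fold change of 0.56. Without both libraries numbered 5, 19 of 37 were positive with a median of 0.10. Its 7 core subunits, among which are the carriers of the flavin and the iron-sulfur clusters, were all positive with a median of 0.38, and 24 of the 30 other subunits were positive with a median of 0.59. With both libraries numbered 5 left out these were 4 of 7 with 0.10 and 15 of 30 with 0.06. Ndufa7 (ENSMUSG00000041881), an accessory subunit, had 3.37, 11.4, 5.26 and 220.0 CPM in CD54-positive replicates 1, 2, 3 and 5, against 6.402, 9.49, 6.81 and 5.61 CPM in the CD54-negative ones. CD54-positive replicate 5 was high, and the other 7 libraries lay between 3.37 and 11.4 CPM. Its log2 fold change of 3.08 ± 1.2 (SE; adjusted p = 0.226 by edgeR) became -0.15 without both libraries numbered 5. Ndufa10 (ENSMUSG00000026260), another accessory subunit, had 31.6, 25.5, 38.5 and 85.9 CPM in CD54-positive libraries, against 31.9, 7.71, 13.1 and 10.1 CPM in CD54-negative ones. Only CD54-negative replicate 1 reached into the CD54-positive range, and the log2 fold change was 1.53 ± 0.63 (adjusted p = 0.249 by edgeR), or 0.87 ± 0.66 when both libraries numbered 5 were left out. Ndufa9, a further accessory subunit and named after its values were seen, had 62.9, 54.1, 83.5 and 96.7 CPM in CD54-positive libraries, against 54.3, 25.1, 10.3 and 3.42 CPM in CD54-negative ones. The groups met only at CD54-positive replicate 2 and CD54-negative replicate 1. The log2 fold change was 1.67 ± 0.72 (adjusted p = 0.267 by edgeR), or 1.17 ± 0.62 when both libraries numbered 5 were left out.

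Ndufb11 (ENSMUSG00000031059), the complex I member with the highest level per length, had 179.8, 147, 72.5 and 24.9 CPM in CD54-positive libraries, against 80.9, 43.8, 107 and 94.1 CPM in CD54-negative ones. Here CD54-positive replicate 5 was the lowest of the 8, and the log2 fold change was 0.38 ± 0.58 (adjusted p = 0.784 by edgeR), or 0.80 ± 0.49 when both libraries numbered 5 were left out. Ndufa4 (ENSMUSG00000029632) carries a complex I name but is now known as a subunit of complex IV. It had 41.1, 30.7, 16.5 and 24.9 CPM in CD54-positive libraries, against 33.3, 39.4, 146 and 5.70 CPM in CD54-negative ones. CD54-negative replicate 3 was far above and replicate 5 far below the rest, and the log2 fold change of -0.99 ± 0.78 (adjusted p = 0.555 by edgeR) was the lowest of all members. Without CD54-negative replicate 3 it was 0.11, and when both libraries numbered 5 were left out it was -1.285 ± 0.65. Ndufs6, a zinc-binding accessory subunit, was the only complex I gene whose groups did not overlap, named here after its values were seen, with 3.70 to 8.26 CPM in CD54-positive and 0.0877 to 3.38 CPM in CD54-negative libraries. The value of 0.0877 CPM was 1 count in CD54-negative replicate 5, under that library's floor of 0.263 CPM. Such a separation was found for 2.70% of complex I genes, against 7.51% of all genes tested. The log2 fold change of Ndufs6 was 1.42 ± 1.07 (adjusted p = 0.538 by edgeR), or 1.17 when both libraries numbered 5 were left out. Ndufb4 and Ndufb4c are near copies of each other, and how reads were divided between this pair is uncertain.

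Complex II, succinate dehydrogenase, links the tricarboxylic acid cycle to the chain, and 0 of its 4 genes passed the test. Sdha (ENSMUSG00000021577), the flavoprotein that oxidizes succinate, had 161, 234, 157 and 225 CPM in CD54-positive libraries, against 128, 116, 107 and 161 CPM in CD54-negative ones. It was higher in each of the 4 same-numbered comparisons, but CD54-negative replicate 5 lay within the CD54-positive range. The log2 fold change was 0.61 ± 0.38 (adjusted p = 0.441 by edgeR) and 0.68 without both libraries numbered 5. Sdhb (ENSMUSG00000009863), the iron-sulfur subunit whose promoter is printed above, had 51.4, 53.8, 54.1 and 169.8 CPM in CD54-positive libraries, against 57.8, 60.2, 31.1 and 35.9 CPM in CD54-negative ones. CD54-positive replicate 5 alone stood out, and the log2 fold change was 0.83 ± 0.52 (adjusted p = 0.448 by edgeR), or 0.11 ± 0.45 when both libraries numbered 5 were left out.

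The membrane anchors of complex II, Sdhc and Sdhd, hold it in the inner membrane and help form its quinone site. Sdhc (ENSMUSG00000058076) had 239.8, 151, 118 and 219.9 CPM in CD54-positive libraries, against 93.1, 155, 182 and 35.3 CPM in CD54-negative ones. The groups overlapped, with CD54-negative replicate 5 lowest and a log2 fold change of 0.64 ± 0.52 (adjusted p = 0.566 by edgeR), or 0.26 ± 0.42 when both libraries numbered 5 were left out. Sdhd (ENSMUSG00000000171) had 55.2, 63.5, 83.4 and 171 CPM in CD54-positive libraries, against 87.3, 73.1, 26.5 and 197 CPM in CD54-negative ones. Both libraries numbered 5 were high, and the log2 fold change of -0.04 ± 0.61 (adjusted p = 0.98 by edgeR) turned positive with upper-quartile scaling (0.11) and with library sizes alone (0.29).

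In complex III, which passes electrons from quinol to cytochrome c, 0 of 12 genes passed the test and 11 were positive, with a median of 0.55, which was -0.003 without both libraries numbered 5. Uqcrc1 and Uqcrc2 are its large core proteins. Uqcrc2 (ENSMUSG00000030884) had 132, 87.3, 83.0 and 139 CPM in CD54-positive libraries, against 70.8, 44.0, 63.8 and 55.9 CPM in CD54-negative ones. Each CD54-positive library lay above each CD54-negative one. Its means were 110.4 ± 29.3 CPM in CD54-positive and 58.6 ± 11.5 CPM in CD54-negative libraries (SD, n = 4 each), and the log2 fold change of 0.91 ± 0.40 missed the threshold (adjusted p = 0.279 by edgeR). It was 0.77 without both libraries numbered 5. Uqcrc1 (ENSMUSG00000025651), whose promoter is printed above, had 29.3, 45.4, 45.3 and 189 CPM in CD54-positive libraries, against 39.8, 22.2, 14.5 and 52.2 CPM in CD54-negative ones. CD54-positive replicate 5 was the outlying value, the groups overlapped, and the log2 fold change was 1.26 ± 0.67 (adjusted p = 0.365 by edgeR), or 0.66 ± 0.56 when both libraries numbered 5 were left out.

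The complex III subunits that carry the redox groups, cytochrome c1 (Cyc1) and the Rieske protein (Uqcrfs1), given for their roles, had log2 fold changes of 0.75 and 0.84. When both libraries numbered 5 were left out these were -0.02 and 0.42. The 5 small subunits had a median of 0.35 with 4 positive, but -0.23 with 0 positive without those libraries. Uqcrh (ENSMUSG00000063882), a small acidic subunit, had 94.2, 92.6, 65.7 and 173 CPM in CD54-positive libraries, against 77.2, 189, 96.4 and 80.3 CPM in CD54-negative ones. No group stood apart, and its log2 fold change was -0.06 ± 0.47 (adjusted p = 0.965 by edgeR), or -0.50 ± 0.45 when both libraries numbered 5 were left out. With all libraries it turned positive with upper-quartile scaling (0.09) and with library sizes alone (0.13), but not with RLE scaling (-0.12). The 3 Uqcc genes encode assembly factors of complex III. Of these, Uqcc3, named after its values were seen, had groups that did not overlap, with 2.75 to 5.52 CPM in CD54-positive and 0.789 to 2.25 CPM in CD54-negative libraries. With Uqcrc2 this made 2 of 12 complex III genes (16.7%, against 7.51% of all genes tested). Uqcc3 did not pass the test, with a log2 fold change of 1.53 ± 0.92 (adjusted p = 0.425 by edgeR), or 1.12 ± 1.10 when both libraries numbered 5 were left out.

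Complex IV, cytochrome c oxidase, has its catalytic centres in mitochondrially encoded subunits that the nuclear ones surround. Of its 11 nuclear members by name 0 passed the test and 11 were positive, with a median of 0.74, which was 0.16 with 8 of 11 positive without both libraries numbered 5. Counting Ndufa4 here instead of in complex I gave 11 of 12 positive and a median of 0.60. Cox4i1 (ENSMUSG00000031818), a regulatory subunit and the highest of all members per length at 517 CPM per kilobase, had 211, 303, 244 and 604.5 CPM in CD54-positive libraries, against 359, 147, 177 and 131 CPM in CD54-negative ones. CD54-positive replicate 5 was highest and CD54-negative replicate 1 second, and the log2 fold change was 0.74 ± 0.50 (adjusted p = 0.484 by edgeR), with 0.16 ± 0.43 when both libraries numbered 5 were left out. Cox5a (ENSMUSG00000000088), a matrix-side subunit, had 56.0, 34.7, 79.85 and 294.5 CPM in CD54-positive libraries, against 73.2, 47.8, 10.7 and 22.02 CPM in CD54-negative ones. CD54-positive replicate 5 was again far above the rest, and the groups overlapped. The log2 fold change was 1.6 ± 0.77 (adjusted p = 0.318 by edgeR), and leaving out both libraries numbered 5 gave 0.38 ± 0.67.

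Cox7a2 (ENSMUSG00000032330), the ubiquitous form of a small subunit, had 47.5, 27.6, 13.5 and 27.0 CPM in CD54-positive libraries, against 24.7, 20.4, 37.6 and 19.2 CPM in CD54-negative ones. The groups overlapped throughout and the log2 fold change was 0.18 ± 0.54 (adjusted p = 0.898 by edgeR), or 0.11 ± 0.61 when both libraries numbered 5 were left out. Cox7a2l (ENSMUSG00000024248), a related factor that joins complexes III and IV in supercomplexes, had 108, 109.7, 64.1 and 254 CPM in CD54-positive libraries, against 121, 98.2, 71.3 and 99.6 CPM in CD54-negative ones. Apart from CD54-positive replicate 5 the groups were interleaved. Its log2 fold change of 0.46 ± 0.48 (adjusted p = 0.663 by edgeR) was -0.03 without both libraries numbered 5.

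Complex V had 0 of 17 members past the test and 16 positive, with a median of 0.67. Without both libraries numbered 5 its median was 0.34, with 15 of 17 positive. Its summed level was 1262, 1342, 1149.8 and 2284 CPM in CD54-positive libraries, against 1134, 947, 927 and 889 CPM in CD54-negative ones. Each CD54-positive sum lay above each CD54-negative one, by a small margin between CD54-positive replicate 3 and CD54-negative replicate 1. In these libraries Atp5a1 alone had 393 and 269 CPM, a wider gap than that of the sums. The separation of the sum therefore depended on this gene and was not shared by the complex as a whole. No p is given for a sum over genes chosen with earlier results known. The catalytic head of the synthase is built from Atp5a1 and Atp5b. Atp5b (ENSMUSG00000025393), the catalytic beta subunit whose promoter is printed above, had 184, 281, 245 and 587 CPM in CD54-positive libraries, against 273, 163, 159 and 270.3 CPM in CD54-negative ones. The groups overlapped and the log2 fold change was 0.58 ± 0.47 (adjusted p = 0.561 by edgeR), or 0.27 ± 0.39 when both libraries numbered 5 were left out. Atp5a1, the alpha subunit, was the only complex V gene with no overlap and is named after its values were seen. Such a separation was thus found for 1 of 17 genes (5.88%, against 7.51% of all genes tested). Atp5a1 had 393 to 532 CPM in CD54-positive and 171 to 349 CPM in CD54-negative libraries. Its log2 fold change was 0.78 ± 0.40 (adjusted p = 0.35 by edgeR), or 0.56 ± 0.34 when both libraries numbered 5 were left out.

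The ring of c subunits, which turns as protons pass, is encoded by Atp5g1, Atp5g2 and Atp5g3, whose median log2 fold change was 1.0, and 1.05 with both libraries numbered 5 left out. Atp5g1 (ENSMUSG00000006057) had 23.5, 53.5, 25.6 and 67.9 CPM in CD54-positive libraries, against 25.6, 12.1, 12.4 and 15.4 CPM in CD54-negative ones. CD54-positive replicates 2 and 5 were high and CD54-negative replicate 1 reached the lower CD54-positive values. The log2 fold change was 1.38 ± 0.56 (adjusted p = 0.24 by edgeR) and 1.05 without both libraries numbered 5. The 4 genes of the peripheral stalk had a median of 0.46, which turned to -0.12 with both libraries numbered 5 left out. The 3 of the central stalk had 0.61, and 0.34 without those libraries.

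Among the 5 other membrane subunits, Atp5j2 (ENSMUSG00000038690), subunit f, had 27.7, 29.7, 37.9 and 61.7 CPM in CD54-positive libraries, against 28.4, 13.8, 18.9 and 10.96 CPM in CD54-negative ones. CD54-negative replicate 1 alone overlapped the CD54-positive range, and the log2 fold change was 1.12 ± 0.53 (adjusted p = 0.315 by edgeR), or 0.65 ± 0.56 when both libraries numbered 5 were left out. Atp5md (ENSMUSG00000071528), a small subunit tied to pairing of the synthase, had 6.41, 4.43, 9.90 and 10.7 CPM in CD54-positive libraries, against 5.07, 5.16, 6.12 and 33.3 CPM in CD54-negative ones. CD54-negative replicate 5 was far above the other 7 libraries. The log2 fold change of -0.66 ± 0.82 (adjusted p = 0.727 by edgeR) was 0.36 without both libraries numbered 5. The inhibitor of the synthase, listed as Atpif1 and not a member by its symbol, averaged 11.6 ± 10.9 CPM in CD54-positive and 3.97 ± 4.66 CPM in CD54-negative libraries (SD, n = 4 each), with a log2 fold change of 1.54 ± 1.04 (adjusted p = 0.484 by edgeR).

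**Figure D4:**
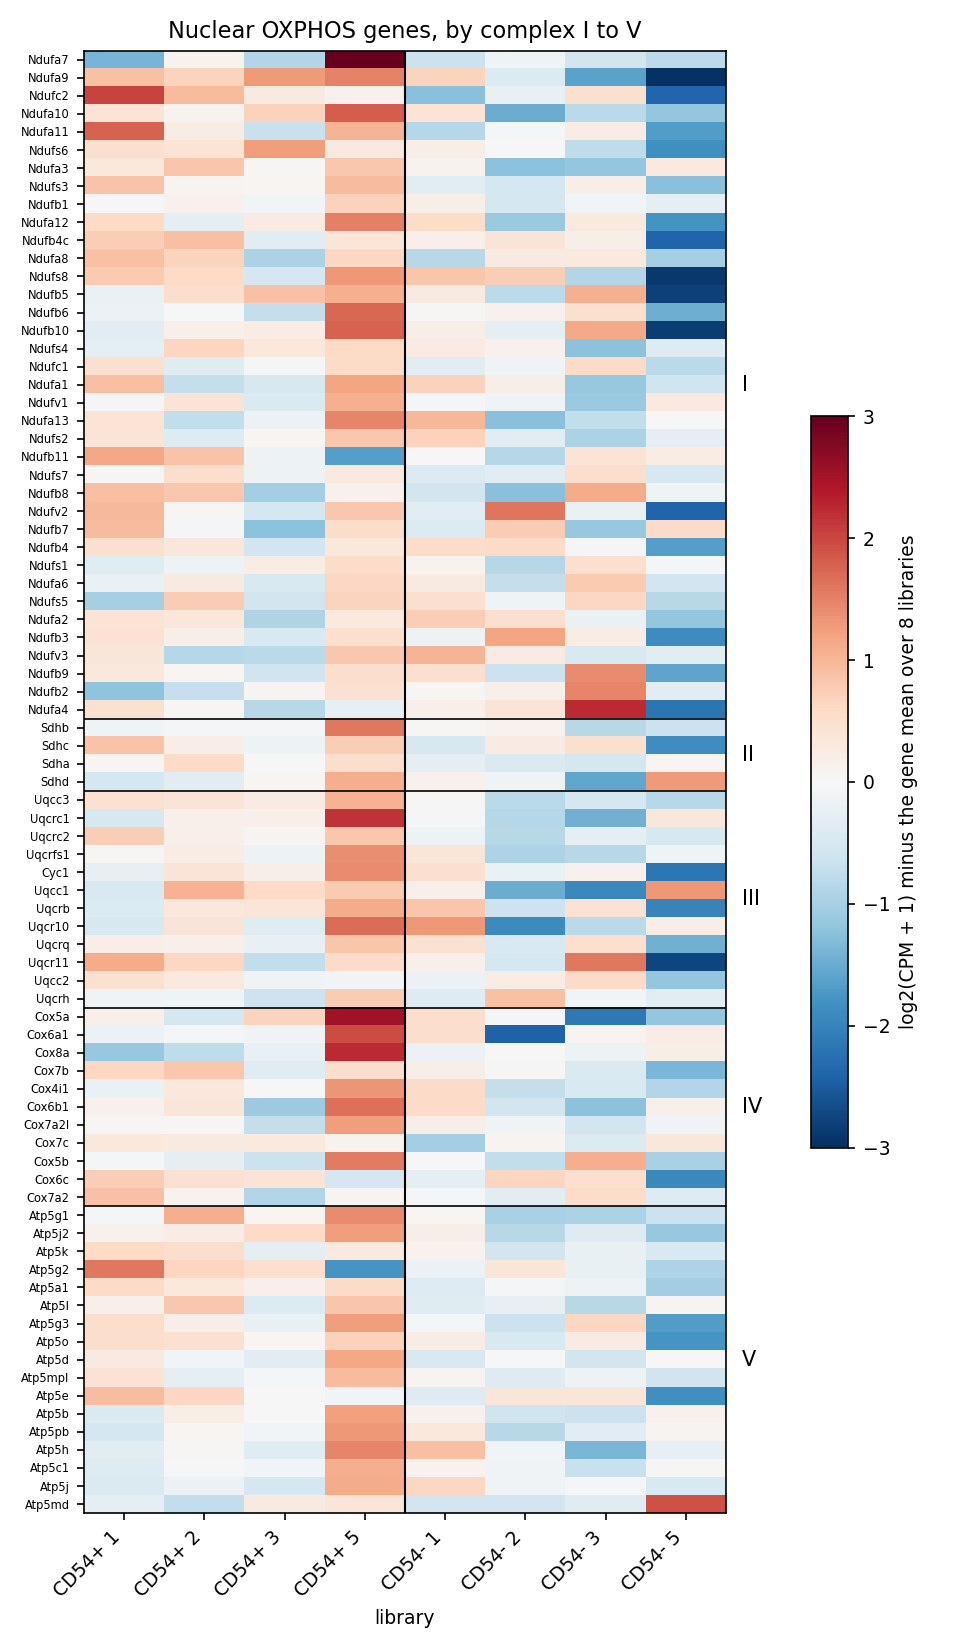
Log2(CPM + 1) of each of the 81 genes minus its mean over 8 libraries (color, values past 3 in either direction drawn at the ends of the scale), with CD54-positive libraries left of the line and CD54-negative ones right of it, and genes grouped by complex and ordered by log2 fold change within it. The column of CD54-positive replicate 5 is the reddest, the highest library for 45 members, and that of CD54-negative replicate 5 the bluest, the lowest for 37.

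The 13 mitochondrially encoded subunits join the nuclear ones in complexes I, III, IV and V. Of these, 0 passed the test in either direction, 8 were positive and the median log2 fold change was 0.03. With both libraries numbered 5 left out, 2 were positive and the median was -0.24. Their sum was 14207, 10939, 10254 and 6342 CPM in CD54-positive libraries, against 7877, 10439, 14907 and 2293 CPM in CD54-negative ones. Both libraries numbered 5 were low in them, and the groups overlapped. The nuclear sum divided by the mitochondrial one was 0.284, 0.361, 0.318 and 1.11 in CD54-positive libraries, against 0.458, 0.279, 0.217 and 1.06 in CD54-negative ones. It was thus high in both libraries numbered 5. In CD54-negative replicate 5, mt-Co2, mt-Co3 and mt-Nd3 were at 0, under a floor of 0.263 CPM, while mt-Co1 was at 1815 CPM. The smallest p belonged to mt-Cytb, the cytochrome b of complex III, at -0.46 ± 0.61 (adjusted p = 0.747 by edgeR).

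**Figure D5:**
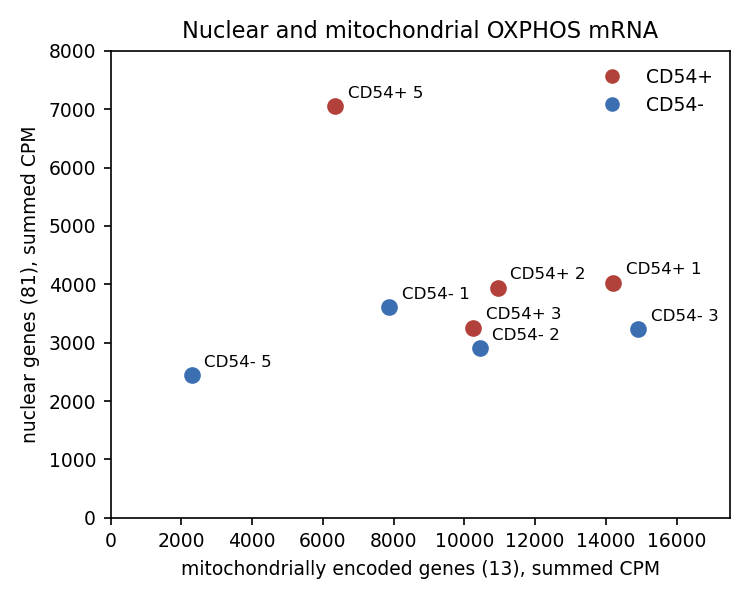
Summed CPM of the 81 nuclear genes (y axis) against that of the 13 mitochondrially encoded genes (x axis) in each library, CD54-positive in red and CD54-negative in blue. CD54-positive replicate 5 is highest on the nuclear axis at 7046 CPM, and CD54-negative replicate 5 is lowest on both axes at 2441 and 2293 CPM.

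Other genes of the pathway were read from lists that the symbol rule leaves out, and none of these lists had a gene past the threshold. Of 45 complex assembly factors tested, 33 were positive with a median of 0.59. The smallest p was that of Dmac1, an assembly factor of complex I, at 2.02 ± 0.72 (adjusted p = 0.192 by edgeR), with 47.5, 23.8, 12.5 and 21.4 CPM in CD54-positive libraries, against 9.17, 8.78, 6.34 and 1.67 CPM in CD54-negative ones. Those groups did not overlap, which was found for 4 of the 45 assembly factors (8.89%, against 7.51% of all genes tested). Only Cycs and Ndufab1 of the tissue isoform and cytochrome c list were tested: Ndufab1, the mitochondrial acyl carrier protein, had 1.52 ± 0.74 (adjusted p = 0.325 by edgeR) and cytochrome c (Cycs) 0.30 ± 0.64. Of 19 tricarboxylic acid cycle genes, 13 were positive with a median of 0.31, led by fumarase (Fh1) at 1.34 ± 0.52 (adjusted p = 0.23 by edgeR). With both libraries numbered 5 left out, the medians were 0.29 for assembly factors and 0.07 for the cycle.

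Of 78 mitochondrial ribosomal protein genes, 57 were positive with a median of 0.59, and Mrps2 had the smallest p at 1.73 ± 0.65 (adjusted p = 0.215 by edgeR). Of 29 import and carrier genes, 24 were positive with a median of 0.49, with Tomm5, a small part of the outer membrane translocase, at 1.41 ± 0.53 (adjusted p = 0.21 by edgeR). Of 15 regulators of mitochondrial biogenesis, 10 were positive with a median of 0.65, and the coactivator Ppargc1b had the smallest p at 2.03 ± 1.36 (adjusted p = 0.481 by edgeR). With both libraries numbered 5 left out, the medians were 0.28 for mitochondrial ribosomal, 0.23 for import and carrier and 0.62 for regulator genes. Outside the mitochondrion, cytosolic ribosomal protein genes leaned the same way: 77 of 78 were positive with a median of 1.01 (0.73 and 74 of 78 without those libraries), and 0 passed the threshold, with Rpl13 first at 1.76 ± 0.53 (adjusted p = 0.132 by edgeR). Their summed CPM was 11874 to 22746 in CD54-positive and 6666 to 14411 in CD54-negative libraries.

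Gene length moved with the fold change over the whole table. The deposited length had a median of 473 bases among members and 2122 bases among all genes tested. The median log2 fold change was 0.50 in the 681 genes of up to 500 bases, 0.20 in the 1796 of 500 to 1000 bases, -0.01 in the 3894 of 1000 to 2000 bases, -0.15 in the 4872 of 2000 to 4000 bases and -0.35 in the 2332 longer ones. Members had 0.57 in the first range (44 genes), 0.66 in the second (22 genes) and 0.61 in the third (13 genes). Among the 1315 other genes with lengths inside the members' interquartile range of 354 to 791 bases, 60.9% were positive with a median of 0.30, against a median of 0.65 in the 41 members there. The part of length in the members' lean was not tested.

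Cell type markers also moved with the groups, and their part in the members' lean was not tested. Of 12 macrophage markers, 9 passed the threshold as higher in CD54-positive libraries, with a median log2 fold change of 3.56, and of 12 neutrophil markers, 6 passed as lower, with a median of -3.36. T and NK cell markers summed to 56.7 to 182 CPM in CD54-positive and 2.11 to 28.6 CPM in CD54-negative libraries, where 6 of 8 markers were at 0 in CD54-negative replicate 5, and 1 of 6 tested passed as higher. B cell markers summed to 38.1 to 403 CPM in CD54-positive and 2.08 to 144 CPM in CD54-negative libraries, and dendritic cell markers to 17.6 to 89.4 and 2.28 to 21.6 CPM. Of these lists, 0 of 5 and 0 of 3 tested genes passed. Epithelial or tumour markers summed to 8.17 to 24.5 CPM in CD54-positive and 0.319 to 68.4 CPM in CD54-negative libraries (0 of 3 tested passed), with Krt14, Krt19 or both at 0 in 7 of 8 libraries. Fibroblast markers summed to 430 to 1909 CPM in CD54-positive and 1504 to 2344 CPM in CD54-negative libraries (0 of 6 passed).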

How the data were processed

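RNA of 8 libraries (4 CD54-positive, 4 CD54-negative) was measured as estimated counts per gene, which the authors deposited in 1 table with symbols and lengths. Per the submitters' processing notes, the tools were Trim Galore 0.6.6 and Salmon 1.9.0 and the build GRCm39 (mm39); for settings and annotation, the sources used here give nothing. Per the labels' protocols, the QIAseq FX kit for single cells amplified the input, and no molecular identifiers are mentioned, so a count need not be 1 molecule.

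Of 25669 rows, 88 repeated identifiers with identical values were kept once (25572), and Ndufb4 was kept under that symbol. Counts were rounded. Genes passing edgeR's filterByExpr (13575) were scaled by TMM and tested with edgeR 4.0.16 in R 4.3.3 (glmQLFit and glmQLFTest, robust, group as the only term) with Benjamini-Hochberg adjustment. A standard error is the log2 fold change divided by the square root of F. CPM use TMM-adjusted library sizes. The fit was tested on simulated data. No count was corrected for length.

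Members, lists and tests were chosen with earlier results of these data known. Members named with values were the 2 with the smallest p, the highest per length and the lowest log2 fold change in each complex, plus Ndufa4, Cox7a2l, the ATP synthase inhibitor and all of complex II. Of each related list, the gene with the smallest p was named. Promoter windows were RefSeq's on GRCm38.p6, another build than the counts'. They were matched by Ensembl gene identifier, and by symbol where that gave no match. Alternatives were RLE, upper-quartile and no scaling factors, DESeq2 1.42.0, limma-voom 3.58.1 with sample weights, no filter, a stricter filter, a replicate block, and leaving out libraries.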

Additional observations from a re-analysis of the deposited data

Results flagged for a closer look

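Within a group of 4 libraries, a value was marked when its gap to the nearest other library, divided by the range of the group, exceeded Dixon's 95% critical value for 4 values. For normally distributed values chance marks about 1 in 20 groups. The values here were CPM without logs, for which that rate was not checked, and 6 of 52 groups were marked. CD54-positive replicate 5 was the high library for Ndufa7 (0.963), Sdhb (0.977), Uqcrc1 (0.899), the complex IV sum (0.881) and the complex V sum (0.831). CD54-negative replicate 5 was the high library for Atp5md (0.963). Over all 81 members, 17 of 162 groups were marked, 12 of them with CD54-positive replicate 5 highest. Members share their libraries, so these marks are not independent.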

How the results depend on the processing

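Members past the threshold were 0 in both directions under every alternative run, out of the 57 that passed the 10 CPM filter, the 79 with an adjusted p in DESeq2 (not Ndufa7 and Cox8a) and 81 in the others. Calls over all genes ranged from 4 higher and 0 lower (without CD54-negative replicate 1) to 584 and 642 (DESeq2), against 166 and 37 as reported. Calls were 480 and 376 with limma-voom, 125 and 32 with RLE scaling, 258 and 31 with library sizes only, 245 and 120 without a filter, 184 and 61 with the stricter filter, and 219 and 190 without both libraries numbered 5. The lowest adjusted p of a member ran from 0.136 to 0.384. Members at an unadjusted p under 0.05 (5 as reported) numbered 9 with library sizes only, 8 with upper-quartile scaling, 3 with limma-voom and with the replicate block, and 0 to 7 leaving out 1 library. The members' median log2 fold change was 0.53 to 0.77 under the other scalings, and 0.60 to 0.67 above that of all genes, whose own median was 0.17 with library sizes only and -0.07 as reported. It was 0.45 with limma-voom, 0.36 above that of all genes. Leaving out 1 library at a time gave 0.31 to 0.74, which was 0.40 to 0.80 above that of all genes. Of 81 members, 51 were positive in the reported fit and whichever library was left out, and 70 under every scaling. The summed level ratio was 1.23 to 1.64 leaving out 1 library.

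Without both libraries numbered 5, the complex II median was 0.19, the complex III median -0.0025, the ratio of summed levels 1.15, Ndufa7 -0.15, Sdhd 0.13, Cox7a2l -0.029 and Atp5md 0.36. The cause was not tested beyond the use of fewer libraries. Sdhd turned to 0.11 with upper-quartile scaling, 0.29 with library sizes only, 0.15 under limma-voom and 0.023 under the 10 CPM filter, and Uqcrh to 0.095 and 0.13 with the first pair of these. Atp5md turned to 0.12 with limma-voom. Leaving out 1 library at a time, log2 fold changes ran from -0.47 to 0.57 for Sdhd, -0.19 to 0.43 for Cox7a2, -0.38 to 0.33 for Uqcrh, -0.064 to 3.47 for Ndufa7, -0.028 to 0.70 for Cox7a2l, -1.35 to 0.11 for Ndufa4 and -0.91 to 0.53 for Atp5md. In all, 24 values of named genes turned sign and 297 did not; the cause was not tested.

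Same-numbered libraries did not all deviate together (r of -0.15, 0.12, 0.15 and 0.38 for numbers 1, 2, 3 and 5). Libraries of different numbers had r of -0.34 to 0.17. These values do not settle whether a shared number marks a pair. The numbers were not taken as pairs in the reported fit, and the replicate block was run as the alternative. With the replicate block, 0 members were called, the lowest adjusted p was 0.155, the median was 0.60 with 73 of 81 positive, Sdhd was 0.12, and all genes gave 280 higher and 261 lower calls. The spread between libraries (biological coefficient of variation 0.858) limits what could be called.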
